A study of Drosophila melanogaster with 24 samples.

Results

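The 6 regulators of mesoderm and muscle identity, twi, Him, nau, zfh1, kn and bap, were followed in whole Drosophila melanogaster embryos in which the Notch and Ras pathways were switched on, alone or together. The 6 genes were found by their symbols in the platform annotation of the Affymetrix DrosGenome1 array, among 5736 genes or probe sets tested. Each had 1 probe set: 143396_at for twi, 145282_at for Him, 143280_at for nau, 141676_at for zfh1, 143207_at for kn and 143523_at for bap. All 6 passed the filter on dim probe sets, a log2 value of 5 or more on at least 3 of the 24 arrays. zfh1, bap and Him reached that value on all 24 arrays, twi on 19, kn on 11 and nau on 4. The 19 arrays of twi were all those of the transgenic crosses and 1 early control, and the 11 of kn were control and Ras arrays. The filter thus rested on the brighter groups for these 2 genes too. The 4 arrays of nau were the 3 late Ras arrays and 1 early Ras array, so nau entered the test through the Ras cross and had to differ there.

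Every embryo had a homozygous arm-GAL4 mother, so the controls carried the driver too. GAL4 is a yeast activator that turns on transgenes placed behind UAS sites, and the armadillo promoter drives it here ubiquitously, at moderate levels per the series' design text. The fathers were w1118 (control), homozygous for UAS-NotchICD, the nuclear, ligand-independent part of Notch (Notch cross), homozygous for UAS-Ras1V12, a constitutively active Ras85D (Ras cross), or homozygous for both transgenes (combined cross). Embryos were frozen between 5 h 45 min and 6 h 45 min of age (early window) or between 7 h and 8 h (late window), counted from egg lay, from collections of about 500 pooled embryos laid over 1 h and kept at 25°C. Each of the 8 groups had n = 3 arrays, from independent experiments. The series asked where the 2 pathways meet at common transcriptional targets. Transcripts of the transgenes were not analysed here, because no probe set carried the symbol of Notch or Ras85D.

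In the fly embryo, twi encodes the basic helix-loop-helix factor that specifies the mesoderm and whose level later biases mesodermal cells toward somatic muscle. Somatic muscle progenitors are singled out where Ras signalling is received, while Notch holds their neighbours back by lateral inhibition. The progenitors give founder myoblasts, which express muscle identity genes such as nau and kn, and the cells that keep Notch active become fusion-competent myoblasts. Him and zfh1 encode repressors that delay muscle differentiation, and bap specifies the visceral mesoderm, the source of the gut muscles.

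Of these genes, twi and Him rose with each transgene in the late window and reached their highest levels with both. The muscle identity gene kn, which entered the test through control and Ras arrays, fell with Notch and with both transgenes in both windows. It was called higher with Ras in both windows, but the early call was lost whichever of the 6 arrays was left out, and the late call without replicate 1 of control or replicate 2 or 3 of Ras. The other identity gene, nau, was high on the Ras arrays, through which it entered the test, and near the floor elsewhere. The repressor gene zfh1 fell early in the combined cross, and bap was higher late with both transgenes. A late rise of bap with Ras was also called, but held in only 1 of 6 fits that left out an array. Values are the deposited log2 levels, so a difference of 1 is a 2-fold change, and levels of different probe sets cannot be compared. A change was called at an adjusted p under 0.05 (limma, Benjamini-Hochberg over the 5736 tested).

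**Figure D1:**
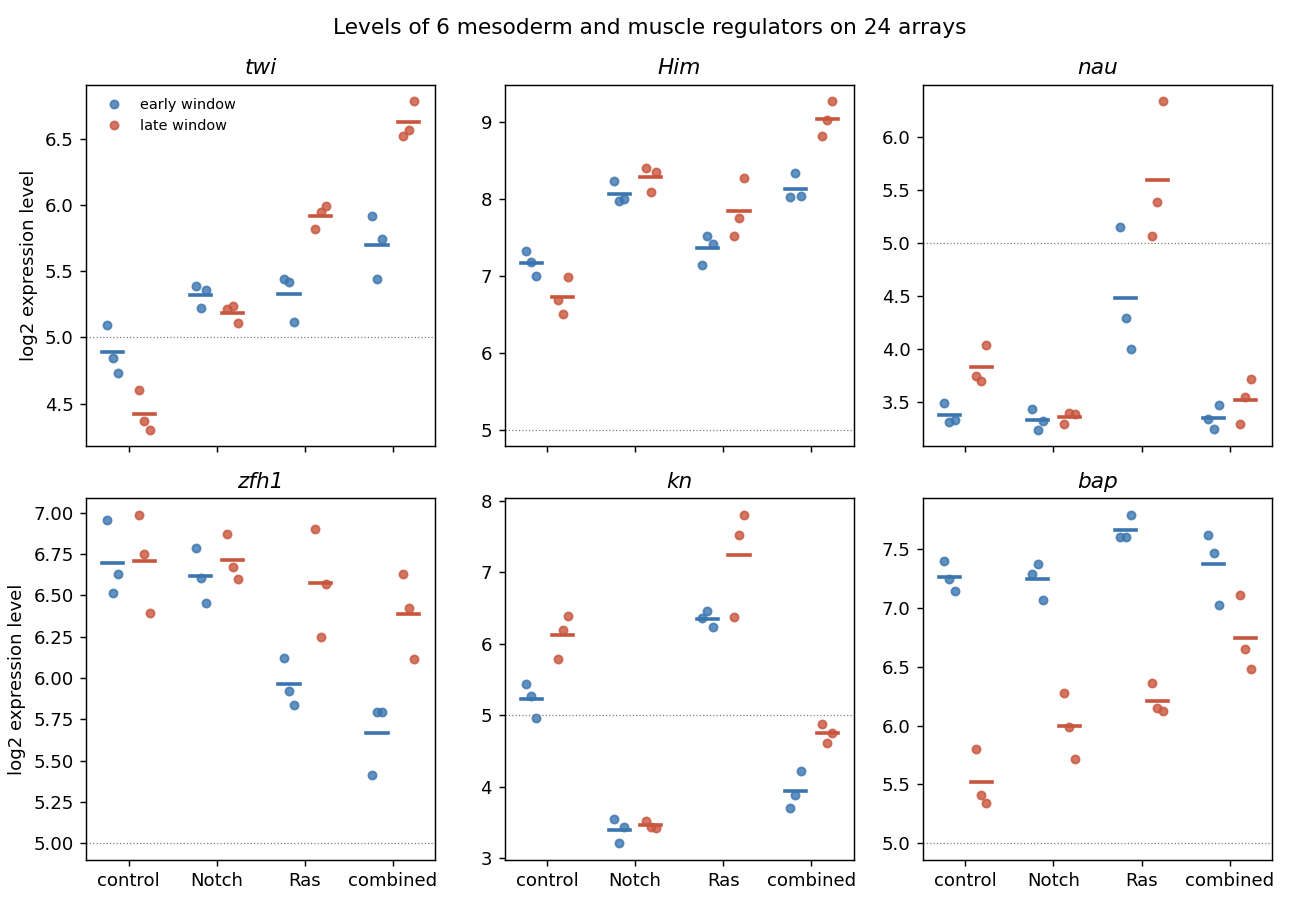
Log2 level of each of the 6 genes (vertical axes) on all 24 arrays, by cross and window (horizontal axes), with 1 point per array a bar at the mean of each group of 3 and a dotted line at the filter value of 5. The combined late arrays of twi lie at 6.52 to 6.78, above every other array, and the Notch arrays of kn lie at 3.21 to 3.55, below every other array of that gene.

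Across the 8 groups kn had the widest range of group means, 3.83 log2 units, and zfh1 the narrowest, 1.05. The median over all tested was 0.541, and 99.4% of them had a narrower range than kn and 82.0% a narrower range than zfh1. The ranges of Him (2.31), nau (2.26), twi (2.20) and bap (2.15) lay between these. Replicate spread differed less: the SD within groups, pooled over the 8 groups, was 0.154 for twi, 0.225 for Him, 0.227 for bap, 0.233 for zfh1, 0.327 for kn and 0.338 for nau, beside a median of 0.177 over all tested. RNA came from whole embryos, in which fewer cells of a type and less RNA per cell cannot be told apart.

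Over all tested, the root mean square difference between 2 arrays of a group was 0.196 to 0.462 log2 units, and array medians lay between 4.03 and 4.21. In the late window the third replicate stood apart in muscle protein genes: Mlc2, a myosin light chain gene chosen here after its values were seen, was at 9.97, 9.83 and 5.99 on the control arrays and at 9.28, 9.86 and 7.13 on the Ras arrays. For the 6 genes, calls that change when all 4 late arrays of replicate 3 are left out are given with their value without them. The tissue could be checked against few defining markers. Of 4 somatic mesoderm markers only htl was tested, at array levels of 5.15 to 5.22 in early controls and 5.201 to 5.55 in late controls.

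The mesoderm determinant twi was lowest in controls of both windows and highest with both transgenes. Its levels on the 3 control arrays were 5.10, 4.84 and 4.73 early and 4.60, 4.37 and 4.30 late. In the Notch cross they were 5.39, 5.22 and 5.36 early and 5.22, 5.24 and 5.11 late. Every Notch array was above every control array of its window. In the Ras cross the levels were 5.44, 5.42 and 5.12 early and 5.82, 5.95 and 5.99 late. With both transgenes they were 5.92, 5.44 and 5.74 early and 6.52, 6.57 and 6.78 late. Ranked by group means, late combined stood above late Ras, early combined, early Ras, early Notch, late Notch, early control and late control. Late Ras and early combined overlapped, as did early Ras with early Notch and early Notch with late Notch; the other neighbours did not.

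Relative to control, twi rose late by 0.76 ± 0.13 log2 units (SE) with Notch (adjusted p = 1.9e-04), by 1.50 ± 0.13 with Ras (2.7e-07) and by 2.20 ± 0.13 with both (4.7e-11). The last is 4.59-fold. Of the control arrays only early replicate 1 reached the filter value of 5, so twi passed the filter mainly on transgenic arrays. Early, only the combined rise of 0.81 ± 0.13 was called (adjusted p = 1.6e-04). The early Notch difference was 0.43 ± 0.13 (adjusted p = 0.054, and 0.024 with replicate number, which pairs the arrays of a window, as a block), and the early Ras difference was 0.44 ± 0.13 (adjusted p = 0.27). The combined cross was higher than Notch late by 1.44 ± 0.13 (adjusted p = 6.4e-07) and higher than Ras late by 0.70 ± 0.13 (5.4e-04). Early it exceeded Notch by 0.38 ± 0.13 (adjusted p = 0.32) and Ras by 0.37 ± 0.13 (adjusted p = 0.065, and 0.030 with the block).

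Between windows twi went down in controls and up wherever Ras was active. In controls the change was -0.47 ± 0.13 (adjusted p = 0.0084), a call that was lost without replicate 1 of the early control (0.057). The Ras cross rose by 0.59 ± 0.13 (adjusted p = 0.0015) and the combined cross by 0.92 ± 0.13 (1.6e-05). In the Notch cross no change between windows was called (adjusted p = 0.47), with a 95% interval of -0.40 to 0.13 log2 units.

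Him, whose product holds muscle progenitors in an undifferentiated state by opposing Mef2, had the highest levels of its range with Notch and with both transgenes. On the control arrays it was at 7.33, 7.18 and 7.00 early and at 6.69, 6.50 and 6.99 late. On the Notch arrays it was at 8.23, 7.97 and 8.00 early and at 8.40, 8.10 and 8.35 late. All 6 Notch values lay above all 6 control values. On the Ras arrays Him was at 7.14, 7.52 and 7.41 early, within or just above the early control values, and at 7.52, 7.75 and 8.27 late, above all late controls. On the combined arrays it was at 8.02, 8.34 and 8.04 early and at 8.82, 9.03 and 9.27 late. Late combined stood clear of the rest and late control did not overlap early control. Between these, late Notch, early combined, early Notch, late Ras, early Ras and early control each overlapped the next in the order.

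With Notch, Him rose by 0.89 ± 0.17 log2 units early (adjusted p = 0.0019) and by 1.55 ± 0.17 late (1.5e-06). With Ras it rose late by 1.12 ± 0.17 (adjusted p = 5.6e-04; 0.10 in a fit of those 6 arrays alone). Early, the Ras effect had a 95% interval of -0.18 to 0.55 and was not called (adjusted p = 0.9995). Both transgenes raised Him by 0.96 ± 0.17 early (adjusted p = 7.3e-04) and by 2.31 ± 0.17 late (2.9e-09), which is 4.97-fold. The combined cross exceeded Ras by 0.78 ± 0.17 early (adjusted p = 0.0058) and by 1.19 ± 0.17 late (5.0e-05). It exceeded Notch late by 0.76 ± 0.17 (adjusted p = 0.021). That last call was lost in a fit of those 6 arrays alone (0.089), without replicate 2 or 3 of either group (up to 0.16), and without the late arrays of replicate 3 (0.079).

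From early to late, Him rose in the combined cross by 0.91 ± 0.17 (adjusted p = 4.9e-04). It also rose in the Ras cross, by 0.49 ± 0.17 (adjusted p = 0.041), but this was not called without the late arrays of replicate 3 (0.20), in a fit of the 6 arrays (0.14), or without replicate 1 or 3 of early Ras or replicate 2 of late Ras (up to 0.25). In controls the change was -0.44 ± 0.17 (adjusted p = 0.059, and 0.010 without the late arrays of replicate 3).

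The repressor gene zfh1, which encodes a zinc-finger homeodomain protein made in mesoderm, hemocytes and motor neurons among other cells, was lowest in early Ras and early combined embryos. Its levels on the control arrays were 6.95, 6.51 and 6.63 early and 6.99, 6.75 and 6.39 late. In the Notch cross they were 6.79, 6.61 and 6.45 early and 6.87, 6.67 and 6.60 late, which overlap the controls. Early Ras arrays were at 6.12, 5.92 and 5.84 and early combined arrays at 5.41, 5.80 and 5.80, all below every early control array. The late values were 6.90, 6.25 and 6.57 with Ras and 6.63, 6.43 and 6.11 with both, and overlapped the late controls. Late Notch, late control, early control, early Notch, late Ras and late combined followed each other with overlaps. Late combined and early Ras overlapped marginally, 6.11 against 6.12, and early combined lay below all.

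In the combined cross zfh1 was below control early, with a change of -1.03 ± 0.18 log2 units (adjusted p = 4.8e-04), to a level of 5.67 ± 0.22 (SD, n = 3) from 6.70 ± 0.23. The early combined cross was also below Notch (-0.95 ± 0.18, adjusted p = 0.019). This call was lost in a fit of those 6 arrays alone (0.15) and without replicate 1 or 2 of Notch or replicate 1 or 3 of the combined cross (up to 0.17). With Ras alone the early change was -0.74 ± 0.18 (adjusted p = 0.12, and 0.014 with the block). With Notch alone no early change was called (adjusted p = 0.99). The early combined cross was not called below Ras (-0.29 ± 0.18, adjusted p = 0.34). Late, the combined change was -0.32 ± 0.18 (adjusted p = 0.29). From early to late zfh1 rose by 0.72 ± 0.18 in the combined cross (adjusted p = 0.0043) and by 0.61 ± 0.18 in the Ras cross (0.015). The Ras call was lost under quantile normalisation (0.060) and without replicate 3 of early Ras or replicate 1 of late Ras (up to 0.083). The mean level of 6 tested hemocyte markers, of 7 listed, was 5.14 to 5.30 over early controls, 5.23 to 5.50 over early Ras and 5.07 to 5.198 over early combined arrays, and the part of hemocytes in the change of zfh1 was not tested.

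nau, the fly member of the MyoD family and active in a subset of muscle founders, reached a log2 level of 5 on Ras arrays only. Its levels were 3.49, 3.31 and 3.33 in early controls and 3.75, 3.69 and 4.04 in late controls, below the median of all probe sets and arrays, 4.12. The Notch arrays were at 3.43, 3.24 and 3.32 early and at 3.30, 3.40 and 3.39 late. The combined arrays were at 3.34, 3.24 and 3.47 early and at 3.29, 3.54 and 3.72 late, also below that median. The Ras arrays were at 5.15, 4.29 and 3.996 early and at 5.06, 5.38 and 6.33 late. All 3 Ras arrays of each window lay above every array of the other crosses of that window. In the order of group means every neighbour overlapped the next, from late Ras and early Ras through late control, late combined, early control, late Notch, early combined and early Notch.

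Because the filter admitted nau through its Ras arrays, its differences that involve the Ras cross are given as a description, with the adjusted p of a fit without the filter, in which its level had no part in its entry. Late Ras exceeded late control by 1.77 ± 0.25 log2 units (0.00087 without the filter, and 0.075 in a filtered fit of those 6 arrays alone). Early, Ras exceeded control by 1.10 ± 0.25 (0.15 without the filter). The combined cross was below the Ras cross, with differences of -1.13 ± 0.25 early (0.016 without the filter) and -2.08 ± 0.25 late (2.4e-05). Neither the early Ras level nor the late one was reached on any combined array. Relative to control, the late change was -0.31 ± 0.25 with both transgenes (adjusted p = 0.52) and -0.47 ± 0.25 with Notch (0.26), both between levels near the floor. From early to late nau was higher in the Ras cross by 1.12 ± 0.25 (0.0063 without the filter, and 0.083 in a filtered fit of the 6 arrays). In controls the change was 0.45 ± 0.25 (adjusted p = 0.19; 0.031 in a fit of the 6 arrays).

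The EBF-family gene kn, also called collier, gives identity to a dorsal muscle and acts in the head, the lymph gland and some neurons too. On the control arrays it was at 5.44, 5.27 and 4.96 early and at 5.78, 6.20 and 6.39 late. On the Notch arrays it was at 3.55, 3.21 and 3.44 early and at 3.53, 3.44 and 3.42 late. These 6 values lay below the array median of 4.12 and below every control. On the Ras arrays kn was at 6.35, 6.46 and 6.23 early and at 6.38, 7.52 and 7.80 late. On the combined arrays it was at 3.71, 3.89 and 4.21 early and at 4.88, 4.61 and 4.75 late. The combined values lay between Notch and control in both windows without overlap. In the full order late Ras, early Ras and late control overlapped in turn, followed without overlap by early control, late combined, early combined and late Notch, the last of which overlapped early Notch.

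With Notch kn fell, with changes of -1.82 ± 0.25 log2 units early (adjusted p = 2.3e-05) and -2.66 ± 0.25 late (7.8e-08), to 3.54-fold and 6.32-fold below control. Both falls end near the floor of the arrays, where differences are compressed. The filter admitted kn on control and Ras arrays only, so its lower levels with Notch and with both transgenes are a description. With Ras it rose by 1.12 ± 0.25 early (adjusted p = 0.0497) and by 1.11 ± 0.25 late (0.016). The early call was lost without any 1 of the 6 arrays (0.087 to 0.30), without the filter (0.10) and with median centring (0.088). The late call was lost without replicate 1 of control or replicate 2 or 3 of Ras (up to 0.095), without the late arrays of replicate 3 (0.12) and in a fit of the 6 arrays (0.47). With both transgenes kn fell too, with changes of -1.29 ± 0.25 early (adjusted p = 0.0012) and -1.38 ± 0.25 late (3.5e-04).

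Set against the single transgenes, the combined cross had less kn than Ras, with differences of -2.41 ± 0.25 log2 units early (adjusted p = 5.7e-07) and -2.49 ± 0.25 late (2.4e-07). It had more kn than Notch late, by 1.28 ± 0.25 (adjusted p = 0.0062), and the early difference was 0.54 ± 0.25 (0.47). From early to late kn rose by 0.90 ± 0.25 in controls (adjusted p = 0.0082), by 0.89 ± 0.25 with Ras (0.010) and by 0.81 ± 0.25 with both (0.015). The Ras call was lost without replicate 2 or 3 of late Ras (up to 0.074), without the late arrays of replicate 3 (0.090) and in a fit of the 6 arrays (0.11), and the combined call without replicate 1 of its early arrays (0.070). In the Notch cross the 95% interval of this change was -0.45 to 0.57. Genes of neurons moved with kn under Notch. The mean level of elav, nerfin-1 and fne, 3 of 3 listed neuron markers, was 8.04 to 8.97 over late controls, 5.27 to 5.67 over late Notch, 5.24 to 5.52 over late combined and 8.11 to 8.92 over late Ras arrays. Their part in the change of kn was not tested.

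bap, a homeobox gene of the NK family, was the only gene of the 6 called lower late than early in every cross. Control arrays were at 7.40, 7.24 and 7.14 early and at 5.80, 5.41 and 5.34 late. Notch arrays were at 7.28, 7.37 and 7.07 early and at 6.27, 5.99 and 5.72 late. In both crosses every late array was below every early array. Ras arrays were at 7.60, 7.60 and 7.79 early and at 6.36, 6.15 and 6.12 late. Combined arrays were at 7.62, 7.47 and 7.02 early and at 7.11, 6.65 and 6.48 late. Late Ras lay below early Ras, whereas the highest late combined array was above the lowest early one. In the order of group means early Ras, early combined, early control, early Notch and late combined overlapped in turn. Late combined lay above late Ras without overlap, late Ras overlapped late Notch, and late Notch overlapped late control.

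From early to late bap changed by -1.74 ± 0.18 log2 units in controls (adjusted p = 3.5e-07), by -1.25 ± 0.18 with Notch (2.0e-05), by -1.45 ± 0.18 with Ras (4.7e-06) and by -0.63 ± 0.18 with both (0.0097). The combined call was lost without replicate 1 of its early arrays, without replicate 3 of its late arrays (up to 0.063) and without all late arrays of replicate 3 (0.053). Relative to late controls, bap was higher by 1.23 ± 0.18 with both transgenes (adjusted p = 2.8e-05) and by 0.69 ± 0.18 with Ras (0.040). The Ras call held in 1 of 6 fits that left out an array, lost with each but replicate 1 of control (up to 0.17), and was lost without the filter (0.066), under quantile normalisation (0.0615), in a fit of the 6 arrays (0.16) and without the late arrays of replicate 3 (0.15). With Notch the late change was 0.48 ± 0.18 (adjusted p = 0.082, and 0.0062 with the block). Late combined exceeded Notch by 0.75 ± 0.18 (adjusted p = 0.024) and Ras by 0.53 ± 0.18 (0.056, and 0.0029 with the block). The excess over Notch was not called without the filter (0.051), under quantile normalisation (0.062), in a fit of the 6 arrays (0.25), without replicate 2 or 3 of Notch or 1 or 2 of combined (up to 0.19), or without the late arrays of replicate 3 (0.11). Early, the Ras change was 0.41 ± 0.18 (adjusted p = 0.83).

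**Figure D2:**
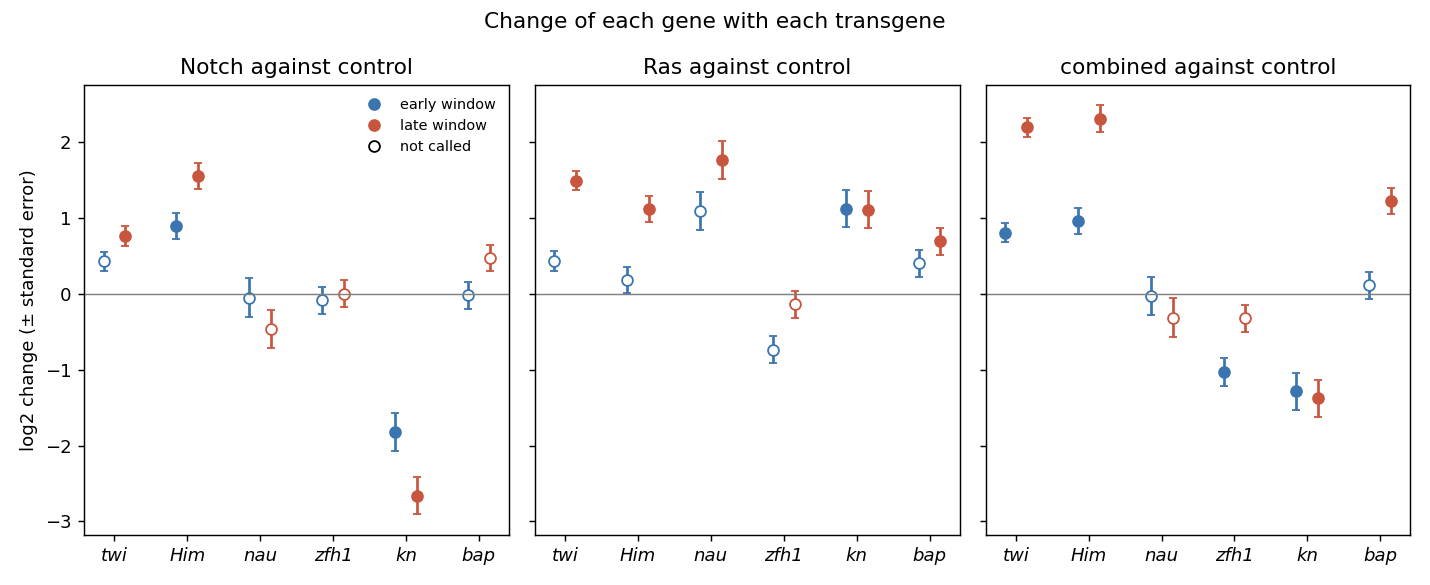
Log2 change of each gene from the control of the same window (vertical axis) for the 6 genes (horizontal axes), with 1 panel per transgenic cross, both windows by colour, bars of 1 SE and open points for changes that were not called. twi and Him rise late in all 3 crosses, while kn falls with Notch (-1.82 and -2.66). kn is higher with Ras (1.12 and 1.11), but the early call was lost whichever of the 6 arrays was left out. The late call held in 3 of 6 such fits.

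Counted over the 6 genes, 5 changes relative to control were called with late Ras, nau included, and 4 with both transgenes in each window. Without nau late Ras has no lead. Late, 5 of 6 rose with Ras and none fell, beside 2.16% of all tested that were called in either direction and 1.1% that rose. nau is among the 5 and entered through these arrays. In a fit of the 6 arrays alone 1 of 6 was called, twi, and 3 of 6 without the late arrays of replicate 3. Leaving out any 1 of the 6 arrays left 3 or 4 of 6, with 3 without replicate 2 or without replicate 3 of late Ras. Early, 1 of 6 was called with Ras, kn, beside 0.366% of all tested, and 3 of 6, nau included, with the block. The share of all tested that rose with early Ras was 0.262% and the share that fell 0.105%, and 1.06% fell with late Ras. With early Notch 1 of 6 rose and 1 fell, beside 5.42% of all tested that were called, 1.94% higher and 3.49% lower. With late Notch 2 rose and 1 fell, beside 13.7%, with 6.22% higher and 7.5% lower. With both transgenes early 2 rose and 2 fell, beside 6.96%, with 2.53% higher and 4.43% lower. With both late 3 rose and 1 fell, beside 15.1%, with 7.64% higher and 7.51% lower. These counts include kn, which entered through control and Ras arrays, and twi, which entered mainly through transgenic arrays. Every comparison with control in a window shares the same 3 control arrays.

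Relative to Notch alone, the combined cross had 1 lower gene of the 6 early, zfh1, beside 0.227% of all tested that were called, 0.0872% higher and 0.139% lower. Late it had 4 higher, beside 1.83%, with 0.767% higher and 1.06% lower, and 2 of the 4 were called without the late arrays of replicate 3. Relative to Ras alone, the lower ones were nau and kn, both admitted by the filter on Ras arrays, kn also on control arrays. Of the 6, 1 was higher and 2 lower early, beside 11%, with 5.07% higher and 5.94% lower. Late 2 were higher and 2 lower, beside 11.3%, with 5.06% higher and 6.24% lower. Between windows larger shares of all tested changed. In controls 1 of 6 rose and 2 fell, beside 31.3%, with 18.3% higher and 13.1% lower late. With Notch 1 fell, beside 28.4%, with 18.4% higher and 9.99% lower. With Ras 5 rose and 1 fell, beside 28.4%, with 17.8% higher and 10.7% lower. nau is among the 5 and entered mostly through the late Ras arrays, and 3 of 6 were called in a fit of the arrays compared. With both 4 rose and 1 fell, beside 33.3%, with 20.3% higher and 13% lower. The median change of the 6 from control, nau included, was 0.42 log2 units early and 1.12 late with Ras. It was -0.03 and 0.24 with Notch and 0.04 and 0.46 with both. Over all tested these medians lay between -0.04 and 0.04.

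**Figure D3:**
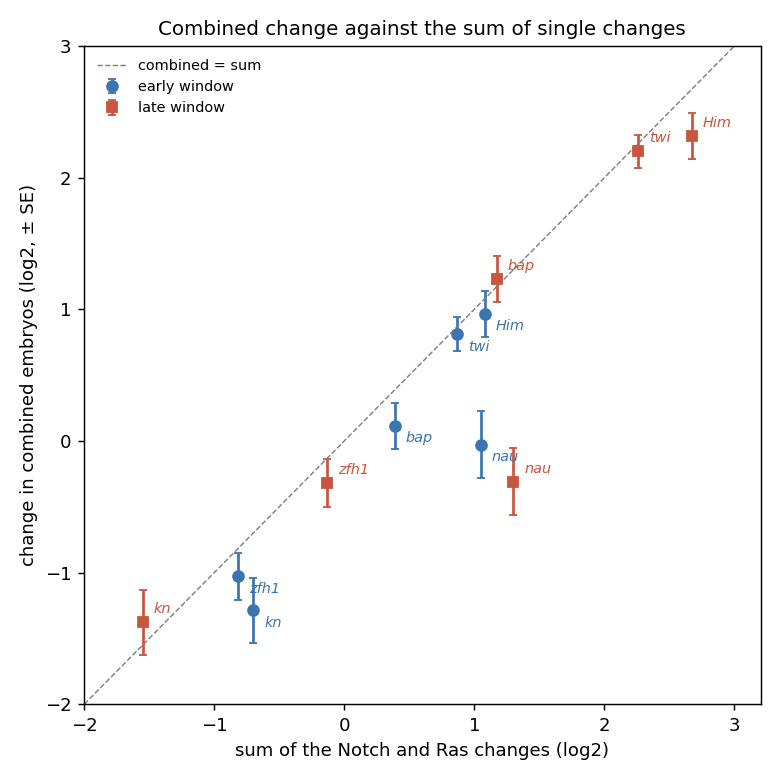
Change with both transgenes (vertical axis, log2, bars 1 SE) against the sum of the changes with each alone (horizontal axis, log2), for the 6 genes in each window, with the line of equality. twi late lies close to the line, at a sum of 2.26 and a combined change of 2.20, and nau, admitted through its Ras arrays, lies at 1.30 and -0.31 late.

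Additivity on the log2 scale was tested as the interaction of the 2 transgenes. For twi late, the single changes summed to 2.26 and the combined change was 2.20, with a 95% interval of the difference from -0.44 to 0.32. For Him late, the sum was 2.68 and the combined change 2.31 (interval -0.88 to 0.15), and for bap late they were 1.17 and 1.23 (-0.46 to 0.58). For kn late, the sum was -1.55 and the combined change -1.38 (interval -0.55 to 0.90), although its Notch levels lay near the floor. For zfh1 early, the sum was -0.82 and the combined change -1.03 (interval -0.74 to 0.32). For nau the difference was -1.61 ± 0.36 late and -1.08 ± 0.36 early (adjusted p = 0.15 and 0.61 in a fit without the filter). These values are a description, since nau entered the filtered test through Ras and its control, Notch and combined levels lay near the floor. None of the 6 was called by limma in either window (0.139% of all tested were called early and 0.227% late). At an unadjusted p under 0.05 there was 1 of 6 in each window, which was nau.

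Whether an effect was larger late than early was tested directly. The combined effect grew by 1.39 ± 0.18 log2 units for twi (adjusted p = 1.2e-04), by 1.35 ± 0.25 for Him (0.0033) and by 1.12 ± 0.25 for bap (0.017), which made 3 of 6, beside 2.55% of all tested that were called and 1.17% that grew. For bap the call was lost without replicate 1 of early control, replicate 2 of late control or replicate 3 of early combined (up to 0.057). The Ras effect grew for 1 of 6, twi, by 1.06 ± 0.18 (adjusted p = 0.014), beside 0.0697% of all tested that were called and 0.0349% that grew. That call was lost without replicate 1 of early control, replicate 2 or 3 of late control, replicate 3 of early Ras or replicate 2 or 3 of late Ras (up to 0.073), in a fit of those 12 arrays alone (0.077) and without the late arrays of replicate 3 (0.12). No gene of the 6 was called for Notch by limma (1.6% of all tested were called), and at an unadjusted p under 0.05 there were 2, Him higher by 0.66 ± 0.25 (adjusted p = 0.28) and kn lower (-0.84 ± 0.35, adjusted p = 0.35). For zfh1 the combined effect differed by 0.71 ± 0.25 (adjusted p = 0.19, and called with the block).

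Beside these genes stood a list of 34 other mesoderm and muscle transcription regulators, of which 18 were tested, 12 were below the filter and 4 had no named probe set. Counts in this and the following lists are to be read beside the shares of all tested given above for each comparison. Some late counts move without the late arrays of replicate 3. In this list they become 3 higher and 6 lower with Notch, 1 and 0 with Ras, and 2 and 5 with both. With Notch, 1 rose and 7 fell early and 4 rose and 6 fell late. The largest late changes were those of Kr (-2.39 ± 0.20), a zinc-finger gene of muscle founders and other tissues, pnr (-1.06 ± 0.20), a GATA gene of the dorsal mesoderm and ectoderm, and org-1 (-1.03 ± 0.20), a T-box gene of muscle founders. None of the 18 was called with early Ras and 2 rose with late Ras, org-1 by 0.82 ± 0.20 and lmd, the Gli-family gene of fusion-competent myoblasts, by 0.65 ± 0.11. The rise of org-1 was not called without the late arrays of replicate 3 (0.66 ± 0.22, adjusted p = 0.21). With both transgenes 2 rose and 8 fell early, and 3 rose and 4 fell late. Late, lmd rose by 1.12 ± 0.11 and sna, the mesodermal repressor gene that acts beside twi, by 1.06 ± 0.17, while pnr changed by -1.20 ± 0.20 and Kr by -0.94 ± 0.20. The list's median late change was -0.14 with Notch, 0.11 with Ras and -0.16 with both, beside 0.01, 0.02 and 0.04 over all tested.

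**Figure D4:**
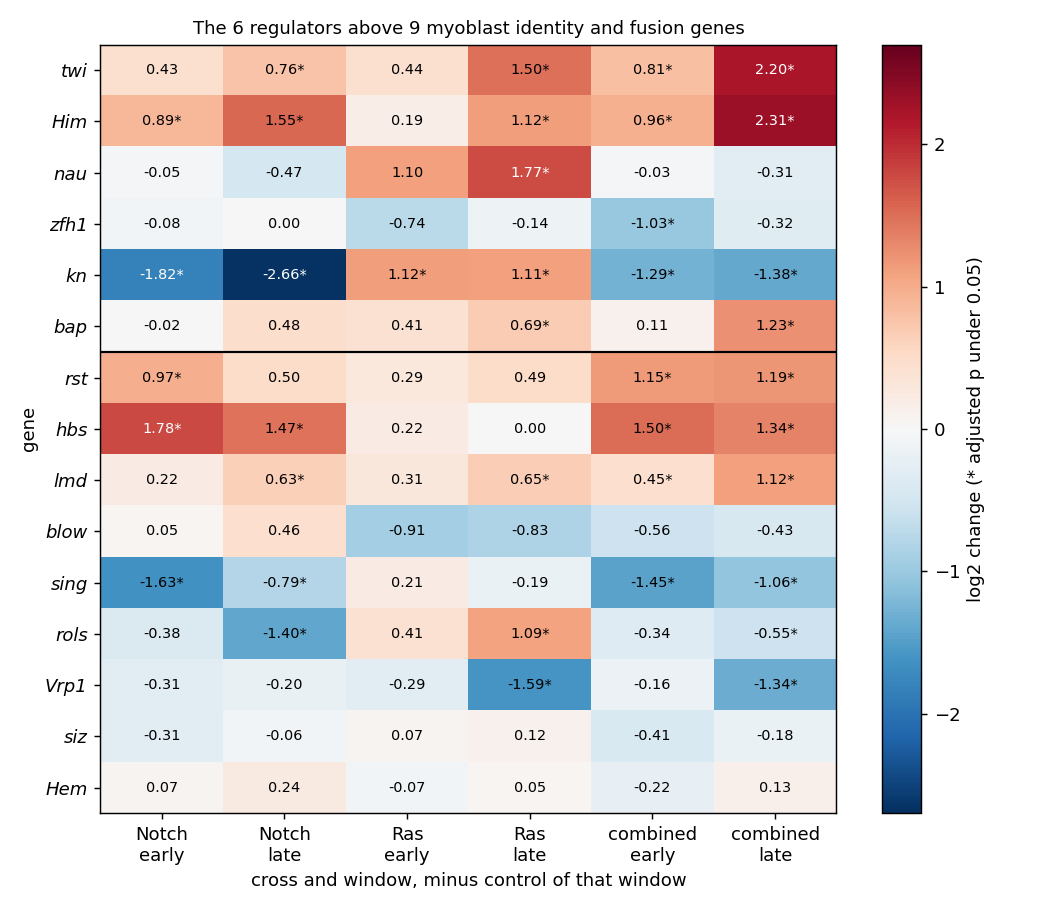
Log2 change from the control of the same window (colour and printed value, called changes with an asterisk) for the 6 genes, above the line, and the 9 tested genes of the myoblast identity and fusion list, by cross and window. rols, picked out after its values were seen, has the signs of kn late (-1.40 with Notch, 1.09 with Ras, -0.55 with both), and hbs rises with Notch and with both, by 1.34 to 1.78.

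Of 13 genes of myoblast identity and fusion, 9 were tested. Among them is lmd, which is also counted in the list of other regulators, so the 2 lists are not separate. With Notch, 2 rose and 1 fell early and 2 rose and 2 fell late. hbs, an immunoglobulin-family adhesion gene of fusion-competent myoblasts, rose by 1.78 ± 0.26 early and 1.47 ± 0.26 late, and lmd by 0.63 ± 0.11 late. sing, a membrane protein gene needed for fusion, changed by -1.63 ± 0.24 early and -0.79 ± 0.24 late (-0.54 ± 0.29 and adjusted p = 0.32 without the late arrays of replicate 3), and rols, a scaffold gene of founder myoblasts, by -1.40 ± 0.17 late. With Ras none was called early, and late 2 rose and 1 fell. rols rose by 1.09 ± 0.17, and Vrp1, which encodes an actin regulator used in fusion, changed by -1.59 ± 0.18. With both transgenes 3 rose and 1 fell early and 3 rose and 3 fell late. The late rises were 1.34 ± 0.26 for hbs and 1.19 ± 0.18 for rst, another adhesion gene, among others, and Vrp1 changed by -1.34 ± 0.18. Without the late arrays of replicate 3, 1 fell with late Notch and 2 with both late.

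Of 17 mesodermal signalling genes, 11 were tested. With Ras, 2 rose early and 5 rose late and none fell. Late, htl, the FGF receptor gene of the mesoderm, rose by 1.43 ± 0.23, aos and sty, both feedback inhibitors of receptor tyrosine kinase signalling, by 1.15 ± 0.21 and 1.08 ± 0.14, and edl, an ETS-pathway regulator, by 0.96 ± 0.16. With Notch, 4 rose early and 5 rose and 2 fell late. The late falls were those of htl (-1.04 ± 0.23) and mib2, a ubiquitin ligase gene of muscle (-1.05 ± 0.14), and ths, an FGF ligand gene, rose by 1.13 ± 0.22. With both transgenes 4 rose and 1 fell early, and 6 rose and 1 fell late. Without the late arrays of replicate 3, 4 rose with late Notch and 5 with both late.

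Of 15 muscle contractile protein genes, 9 were tested and all 9 rose from early to late in controls, beside 18.3% of all tested. With late Notch 2 fell, with late Ras 1 and with both late 6, beside 7.5%, 1.06% and 7.51% of all tested. None rose in these 3 comparisons. Without the late arrays of replicate 3 the numbers that fell were 6, 2 and 9. With both transgenes Mlc2 changed by -2.77 ± 0.82 (-3.62 ± 0.52 without those arrays) and up, a troponin gene, by -2.45 ± 0.74 (-3.76 ± 0.16). As a check of Notch activity, 11 of 14 Enhancer of split complex genes and other Notch outputs were tested, of which 8 rose early and 9 rose and 1 fell late with Notch. None was called with early Ras, 1 rose with late Ras (0 without the late arrays of replicate 3), and 10 rose and 1 fell with both late. These lists were chosen with earlier results of these data known, and their counts are a description.

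By Pearson correlation over the 24 arrays, which share crosses and windows, the closest pairs among the 6 were twi with Him (r = 0.82) and nau with kn (r = 0.82). Within groups, after subtraction of group means, r was 0.11 for twi with Him and 0.57 for nau with kn. Among 5019 other genes with 1 symbol, kn was closest to Ndg, the nidogen gene of basement membranes (r = 0.96), and to tap and htl (both 0.91). nau was closest to Not11 (r = 0.90), htl (0.89) and udd (0.84). htl was among the 3 closest for both nau and kn. Outside the Ras cross nau lay near the floor, and it entered the test through its Ras arrays. Its r values, that with kn included, therefore largely repeat that difference and are a description. twi was closest to wgn (r = 0.90), CG31445 (0.89) and sty (0.89), and Him to Lrt, dve and esg (0.90, 0.90 and 0.89). bap was closest to Cks30A, a cell cycle gene (r = 0.94), spd-2, a centrosome gene (0.93), and l(1)sc, a proneural gene (0.93). No gene exceeded r = 0.68 with zfh1, whose closest were Rbfox1 (0.68), Tmem63 (0.66) and CASK (0.63).

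Replicate number also went with the level of some of these genes. In the late window replicate 1 had the highest bap and the highest zfh1 in 4 of 4 groups. Replicate 3 had the highest Him and the highest nau in 3 of 4 late groups, and the lowest Mlc2 in every late group.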

How the data were processed

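RNA of whole embryos was hybridised as biotin-labelled cRNA to 24 Affymetrix DrosGenome1 arrays. The deposited values are log2 levels. The authors used GCRMA and limma, per the submitters' processing notes, with versions not given in the sources used here. This method corrects background by probe sequence and by default equalises the distributions of the arrays, so a shift shared by most genes is removed and dim levels are drawn together. The depth of an array has no count here, and the 3 arrays per group limit the precision.

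The table held 14010 probe sets, and 44 control probe sets were left out. The platform annotation gave 1 symbol for 12443 probe sets, several for 327 and none for 1196, and 41 symbols were not found among RefSeq genes. A probe set was kept at a log2 value of 5 or more on at least 3 arrays, and where several probe sets stood for 1 gene the brightest on average was used. This left 5736 to test, 5020 of them with 1 symbol.

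Means of the 8 groups were fitted over all 24 arrays with limma 3.58.1 in R 4.3.3 (lmFit, eBayes, 16 residual and 4.09 prior degrees of freedom), and 19 comparisons were taken from the fit. Adjustment was by Benjamini-Hochberg over all 5736 p-values of a comparison. Errors of changes are standard errors from a spread pooled over all groups, and intervals are 95% intervals of the fit. On simulated data for late Ras against control (5736 genes), 51.7%, 90.3% and 100% of changes of 0.5, 1 and 2 log2 units were recovered, with 15 false calls among 179.

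The 6 genes, the context lists and the tests were chosen with earlier results of these data known. Named beside the 6 genes were the 3 genes most correlated with each and, from each list, up to 4 called genes with the largest change in a comparison. Changes under 0.25 log2 units without a call were not followed singly.

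Replicate numbers pair the arrays within a window. After subtraction of group means, all 36 same-numbered pairs of arrays within a window correlated, with r from 0.16 to 0.67. Across windows the 12 same-numbered pairs of a cross had lower r, from 0.03 to 0.29, and 8 exceeded 0.1. The main fit had no block, and only the block fit of changes between windows took replicate numbers as shared across windows. The alternatives were no filter, median centring, quantile normalisation, a fit of only the arrays compared, replicate number as a block, each array left out in turn and, added after the data were seen, the late arrays of replicate 3 left out. Motifs in promoters and proteins were not analysed here.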

Additional observations from a re-analysis of the deposited data

Results flagged for a closer look

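The effect of both transgenes differed between the windows for 3 genes by a direct test of the difference. It was larger late by 1.39 log2 units for twi, by 1.35 for Him and by 1.12 for bap. The effect of Ras on twi was larger late by 1.06 log2 units. Each difference rests on 12 arrays. The call for bap was lost without replicate 1 of early control, replicate 2 of late control or replicate 3 of early combined (adjusted p up to 0.057). The Ras difference for twi was not called without replicate 1 of early control, replicate 2 or 3 of late control, replicate 3 of early Ras, or replicate 2 or 3 of late Ras (adjusted p up to 0.073), nor without all late arrays of replicate 3 (0.12). The causes of these differences were not tested.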

How the results depend on the processing

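None of the 84 member changes that were called or at least 0.25 log2 units changed sign under an alternative. Smaller uncalled changes, whose sign is less certain, were not followed, so this count says little about direction. Of the 50 called, 36 stayed called whichever array was left out. The number of the 6 genes called moved by more than 1.5 times in these cases. Early Ras against control went from 1 to 0 without the filter and with median centring, and to 3 with the replicate block. The fit of only the arrays compared called 1 instead of 5 for late Ras against control, 0 instead of 1 for early combined against Notch, 2 instead of 4 for late combined against Notch, 3 instead of 6 between windows with Ras, and 0 instead of 1 for the window difference of the Ras effect. The block also called 1 instead of 0 late interactions. Without the late arrays of replicate 3 the counts were 3 for late Ras against control, 2 for late combined against Notch and 0 for the window difference of the Ras effect.

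Leaving out 1 array gave 0 to 1 for early Ras, 3 to 4 for late Ras, 0 to 1 for early and 2 to 4 for late combined against Notch, 3 to 5 between windows with both, 0 to 1 for the late interaction and 0 to 1 for the window difference of the Ras effect. The block ended no call among the 6 genes and added 9. Of these 5 are given with their values in the results. Another 2 are nau with early Ras (adjusted p = 0.010) and its late interaction (0.013), which rest on the arrays that admitted it. The change of Him between windows in controls (adjusted p = 0.049) took replicate numbers as shared across windows. The window difference of the combined effect on zfh1 (0.047) was fitted with numbers paired within each window only.

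Counts over all tested moved too. The fit of only the arrays compared called 22 instead of 124 for late Ras and 11 instead of 21 for early Ras, 520 instead of 787 for late Notch, and 613 instead of 399 early and 558 instead of 869 late with both. Against Notch the combined cross had 6 instead of 13 early and 34 instead of 105 late, and against Ras 351 instead of 648 late. It called 1077 instead of 1631 between windows with Notch, 4 instead of 13 late interactions and 2 instead of 4 window differences of Ras. The block called 44 early and 281 late with Ras, 495 and 1231 with Notch and 729 early with both. It called 46 early and 211 late for combined against Notch, and 1128 instead of 632 early and 1072 late for combined against Ras. It called 36 instead of 8 early and 28 late interactions, and 222 instead of 92, 18 and 338 instead of 146 window differences for Notch, Ras and both. Without the filter there were 22 late interactions and 15 window differences of Ras, with median centring 13 for early Ras, and with quantile normalisation 21 for early combined against Notch. Without the late arrays of replicate 3 there were 46 for late combined against Notch and 6 late interactions. Leaving out 1 array gave 10 to 16 instead of 21 for early Ras (lowest without replicate 3 of control), 8 to 23 instead of 13 early and 59 to 116 instead of 105 late for combined against Notch (59 without replicate 3 of late Notch), and 376 to 539 instead of 632 early for combined against Ras. It gave 3 to 13 instead of 8 early and 7 to 17 instead of 13 late interactions, and 59 to 113 instead of 92, 2 to 9 instead of 4 and 84 to 170 instead of 146 window differences for Notch, Ras and both. The causes were not tested. Levels near the floor, as for nau outside the Ras cross and kn with Notch, limit how far a fold can be read.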
